A study of Mus musculus with 29 samples.

Results

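A group of 10 genes of the digit blastema mesenchyme and the distal limb were followed through 29 RNA-seq libraries of mouse digits. The 10 members were the homeobox genes Msx1, Msx2, Prrx1, Prrx2, Dlx5 and Dlx6, the LIM-homeobox genes Lhx2 and Lhx9, the matrix gene Tnc and the imprinted gene Mest. They were taken by symbol from a time course table of 24411 genes and by mapped Ensembl identifier from an amputation table of 55487 genes. All 10 were found once in each table, and all 10 passed the filter on low counts that left 16084 and 17475 genes for testing.

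Each library held poly(A) RNA of left hindlimb digit tissue beyond the metacarpophalangeal joint, without the nail, from an animal described as a biological replicate. In spared nerve injury (SNI) the left sciatic nerve lost its common peroneal and its tibial branch, whereas sham animals had the same surgery with the nerve left intact. Amputation went through the third phalanx 5 days after surgery. The time course counted days from amputation and held 3 sham libraries at day 7, 3 at day 14 and 2 at day 21, beside 3 SNI libraries at each of these days. The amputation set held SNI digits with amputation at day 7 (n = 3) and day 14 (n = 3) and SNI digits without it at day 7 (n = 3) and day 14 (n = 3). All 4 of its groups therefore had SNI, and none was sham-operated. Some labels of the unamputated digits read as if they had been amputated, and these libraries were placed by title and treatment. For the unamputated digits the day is that of the title, and no interval from surgery was recorded. Their time since SNI may therefore differ from that of amputated digits of the same day. The sources used here give no strain, sex or age. The tissue spans the digit from the joint to the tip, so a blastema was only part of what each library sampled.

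When a mouse digit tip is lost, the bone, dermis and nail bed regrow from a blastema, a mound of proliferating mesenchymal cells beneath the wound epidermis. Msx1 and Msx2 code transcription factors of the nail mesenchyme and nail epithelium, and Msx1 is needed for fetal digit tip regeneration. Prrx1 and Prrx2 mark limb mesenchyme and its connective tissue descendants, Lhx2 and Lhx9 relay signals between limb ectoderm and mesenchyme in the growing bud, and Dlx5 and Dlx6 pattern the limb ridge and bone-forming cells. Tenascin-C, the product of Tnc, is an extracellular matrix glycoprotein laid down in wounds and blastemas, and Mest is an imprinted gene expressed from the paternal copy in embryonic mesenchyme.

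Promoter windows from RefSeq on build GRCm38.p6 (300 bases around each transcription start) were matched by symbol for 8 of the 10 members. Those of Tnc and Lhx9 are shown because these genes rose with amputation, and those of Msx1 and Msx2 because these paralogues followed different genes across libraries. Capitals mark matches, on either strand, to the TATA box core TATAAA, to the homeodomain core TAATTA and to the CCAAT box, which reads as ATTGG on the opposite strand. Of the start sites listed for Tnc, the window shown is the more 3′ one.
Tnc, chr4:64046887-64047186, minus strand: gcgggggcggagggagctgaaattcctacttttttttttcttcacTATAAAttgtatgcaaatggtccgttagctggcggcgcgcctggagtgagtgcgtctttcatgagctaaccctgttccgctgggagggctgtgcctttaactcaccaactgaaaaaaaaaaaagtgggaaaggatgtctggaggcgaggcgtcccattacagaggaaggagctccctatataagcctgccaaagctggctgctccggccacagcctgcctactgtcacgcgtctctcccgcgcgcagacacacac
Lhx9, chr1:138842395-138842694, minus strand: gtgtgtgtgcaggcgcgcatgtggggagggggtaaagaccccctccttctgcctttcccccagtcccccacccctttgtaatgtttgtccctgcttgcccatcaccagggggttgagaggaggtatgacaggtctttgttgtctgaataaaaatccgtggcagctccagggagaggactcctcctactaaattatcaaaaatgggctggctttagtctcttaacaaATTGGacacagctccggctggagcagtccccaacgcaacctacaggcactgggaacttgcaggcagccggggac
Msx1, chr5:37824536-37824835, minus strand: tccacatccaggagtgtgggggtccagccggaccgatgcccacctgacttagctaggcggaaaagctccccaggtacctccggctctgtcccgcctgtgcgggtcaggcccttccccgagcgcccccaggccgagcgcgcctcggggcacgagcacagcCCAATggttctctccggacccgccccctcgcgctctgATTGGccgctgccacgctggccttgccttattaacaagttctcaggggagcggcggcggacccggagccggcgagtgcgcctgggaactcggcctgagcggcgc
Msx2, chr13:53472731-53473030, minus strand: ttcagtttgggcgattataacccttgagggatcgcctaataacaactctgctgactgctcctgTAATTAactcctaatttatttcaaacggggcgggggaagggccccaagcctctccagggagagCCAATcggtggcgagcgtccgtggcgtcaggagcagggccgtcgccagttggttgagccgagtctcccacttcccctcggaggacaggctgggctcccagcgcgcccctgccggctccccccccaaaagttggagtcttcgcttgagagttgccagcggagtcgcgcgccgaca
The Tnc window held 1 TATAAA, which 13.6% of all 32851 windows of this length hold. The Lhx9 and Msx2 windows held 1 CCAAT each and the Msx1 window 2, a motif of 37.4% of windows, and Msx2 also held 1 TAATTA, which 5.29% of windows hold. Prrx1 held 1 TAATTA as well. The motif GGGCGG, read by Sp factors and not capitalised, was searched too and stood once each in the Tnc, Msx1 and Msx2 windows and in 35.7% of all windows. Msx1 and Msx2 had 29 and 22 CpG dinucleotides, against 6 in Lhx9, 16 in the Tnc window shown and a median of 7 over all windows. These matches describe letters only, and no binding was measured.

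Total counts were 35654192 to 56809440 per library in the time course and 31274245 to 43315729 in the amputation set. Levels are given as CPM, the counts scaled to a common library size after correction by TMM, a composition factor of edgeR. A pair of time course libraries had TMM factors under 0.8, sham day 21 replicate 1 (0.633) and SNI day 7 replicate 2 (0.761), and the first axis of variation carried 63.7% of the variance in that table. SNI day 7 replicate 2 had a summed CPM of 13361 over 5 neutrophil markers, against 5.94 to 256 in the other time course libraries. The hindlimb genes Pitx1 and Tbx4, the forelimb gene Tbx5 and the distal limb genes Hoxa13 and Hoxd13 were measured in every group. In the time course the group means of Tbx5 were 1.32 to 2.99 CPM, beside 2.05 to 5.30 for Pitx1. The presence of these genes alone therefore does not tell hindlimb from forelimb. The common biological coefficient of variation was 0.393 in the time course and 0.17 in the amputation set. In simulated day 7 comparisons edgeR recovered 8.96% of genes changed 2-fold in the time course and 74.6% in the amputation set.

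Levels between members were compared per kilobase of exon. Over the 17 time course libraries the median CPM per kilobase was highest for Tnc at 14.8 (range 4.54 to 40.3), followed by Msx1 at 10.5, Prrx2 at 10.1, Msx2 at 8.79, Dlx5 at 8.23, Prrx1 at 7.66 and Lhx2 at 4.94. Mest had 1.91 (0.951 to 4.00), Dlx6 0.741 (0.256 to 1.39) and Lhx9 0.183 (0.0673 to 0.371). Each neighbour in this order overlapped the next in its range over libraries. In the 12 libraries of the amputation set Tnc again had the highest median at 13.1 and Dlx5 was next at 12.3, whereas Prrx2 had 4.75. There the lowest Prrx2 value, 3.57, lay above the highest Dlx6 value, 2.37, and the lowest Mest value, 0.468, lay above the highest Lhx9 value, 0.273. Dlx6 and Lhx9 were the thinly counted members, with 20 to 173 and 21 to 187 reads per time course library. The tables were counted separately, on different gene lists, and no test was run across them. For the condition both hold, SNI with amputation at day 7, Dlx6 had 0.608 to 2.48 CPM in the time course and 3.46 to 4.67 in the amputation set. In the same order Tnc had 35.3 to 115 and 130 to 215 CPM, and Dlx5 had 6.94 to 18.6 and 24.3 to 29.7. Mest went the other way, with 4.68 to 14.9 and 2.03 to 4.67 CPM. The remaining members overlapped between the tables.

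**Figure D1:**
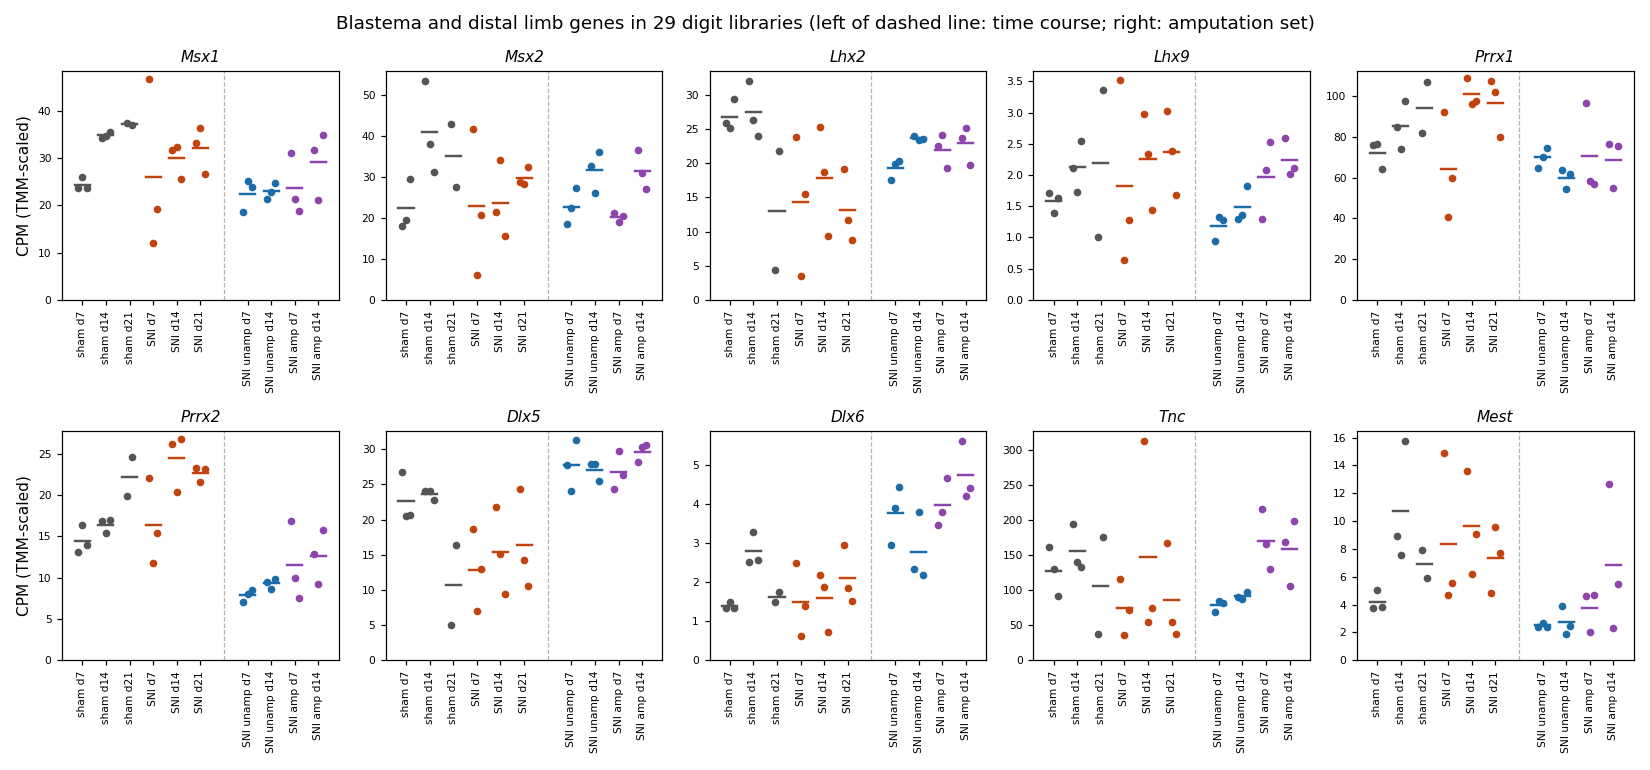
Library-scaled CPM (linear axis from 0) of the 10 members in each of the 29 libraries, by group, with d for day; points are libraries, bars are group means, and the dashed line separates the time course from the amputation set, which were counted apart. Within the amputation set, Tnc sits between 106 and 215 CPM in amputated digits, above the 68.4 to 97.8 of unamputated digits. In the time course, where all digits were amputated, Tnc spans 35.3 to 313 CPM. All 10 members are measured in unamputated digits.

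The amputation set asks which genes differ between a regenerating digit and an intact one, both after SNI. Tnc was the member that rose at day 7 and in the average of both days, and Lhx9 rose in the average. Msx1, Msx2, Lhx2, Prrx1, Prrx2, Dlx5, Dlx6 and Mest passed no edgeR test with amputation. All 10 were present without amputation: in unamputated digits Msx1 had 18.6 to 25.1 CPM, Prrx1 54.4 to 74.8 and Dlx5 24.0 to 31.3. Their presence in these libraries therefore did not depend on a blastema. In bulk RNA a difference in the number of cells of a type and a difference in RNA per cell cannot be told apart.

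Tnc had 215, 165 and 130 CPM in the day 7 amputated libraries and 68.4, 84.6 and 81.7 in the unamputated ones. Every amputated library lay above every unamputated one. The difference was 1.12 ± 0.22 on the log2 scale (SE, n = 3 against 3), a 2.18-fold higher level, with an adjusted p of 0.036 by edgeR's quasi-likelihood test with Benjamini-Hochberg adjustment. Tnc was the 1 member of 10 called at day 7, where 1.35% of all tested genes were called. The call was lost in a fit of the compared groups alone (adjusted p = 0.0542), without the filter on low counts (0.11), with a replicate block (0.0759), and when any of 9 of the 12 libraries was left out. It held without amputated day 7 replicate 3, amputated day 14 replicate 2 or amputated day 14 replicate 3.

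At day 14 Tnc had 169, 106 and 199 CPM with amputation and 90.7, 86.7 and 97.8 without. The groups again did not overlap, and amputated replicate 2, at 106, came nearest to the intact digits. The log2 difference was 0.78 ± 0.22 (n = 3 against 3), and edgeR's adjusted p of 0.0699 missed the threshold. With equal weight for both days Tnc was higher by 0.95 ± 0.16 (log2, 6 libraries against 6), 1.94-fold, with an adjusted p of 0.00641 by edgeR. Leaving out each library in turn kept this call, with log2 differences of 0.85 to 1.07.

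Lhx9, a LIM-homeobox factor, had 1.3, 2.08 and 2.53 CPM in amputated digits at day 7 and 0.936, 1.32 and 1.27 in intact ones. Amputated replicate 1 lay inside the range of the intact digits. At day 14 it had 2.59, 2.02 and 2.11 CPM against 1.29, 1.36 and 1.82, without overlap. The average difference was 0.66 ± 0.19 (log2, 6 libraries against 6), 1.58-fold, with an adjusted p of 0.0445 by edgeR. Lhx9 and Tnc were the 2 of 10 members called in the average, both higher, where 11.8% of all tested genes were called and 5.71% were called higher. The Lhx9 call was lost without the filter (adjusted p = 0.072), with a replicate block (0.0619) and when any of 10 of the 12 libraries was left out (adjusted p of 0.0569 to 0.108). It held without amputated day 7 replicate 1 or unamputated day 7 replicate 3. The paralogue Lhx2 had 19.2 to 25.2 CPM in amputated and 17.6 to 24.0 in unamputated digits, and its day 7 difference was 0.19 ± 0.11 on the log2 scale (adjusted p = 0.464 by edgeR).

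Among the mesenchymal factors, Prrx2 had 16.9, 9.98 and 7.58 CPM at day 7 with amputation and 7.00, 7.98 and 8.52 without. At day 14 it had 12.8, 9.18 and 15.8 CPM against 9.44, 8.63 and 9.84. At each day 1 amputated library lay among the intact digits. The average difference of 0.49 ± 0.18 (log2) had an adjusted p of 0.0946 by edgeR, while DESeq2 gave 0.0473. Prrx1 overlapped at both days, with 54.8 to 96.4 CPM in amputated and 54.4 to 74.8 in intact digits.

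Dlx6, which shares a locus with Dlx5, had 5.63, 4.21 and 4.41 CPM at day 14 with amputation and 2.34, 3.81 and 2.17 without. These groups did not overlap, and the log2 difference of 0.78 ± 0.24 had an adjusted p of 0.0866 by edgeR. DESeq2 gave 0.030 and limma voom with sample quality weights 0.0189 for this gene. At day 7 the Dlx6 groups overlapped, with 3.46 to 4.67 against 2.96 to 4.45 CPM. Dlx5 itself had 28.2 to 30.5 CPM against 25.5 to 27.9 at day 14, higher without overlap, and overlapped at day 7. The Dlx6 locus also carries an antisense RNA, Dlx6os1, at 1.28 to 2.41 CPM in these libraries. At day 14 Dlx6os1 had 1.75 to 2.41 CPM with amputation and 1.28 to 1.68 without, higher without overlap like Dlx6. At day 7 Dlx6os1 overlapped. The kit kept strand, but whether the counting used it is not given in the sources used here, so reads of Dlx6 and its antisense partner may not be told apart. The same holds for Mest, which overlaps Copg2 on the opposite strand, and for Tnc, Lhx2 and Prrx1, which overlap noncoding models on it. Copg2 stood far above Mest, with 122 to 130 CPM in amputated and 102 to 110 in intact digits at day 14. At day 7 the Copg2 groups overlapped.

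Mest, the imprinted gene, varied widely among amputated digits. It had 12.6, 2.35 and 5.45 CPM in the day 14 amputated libraries and 3.87, 1.85 and 2.47 in the intact ones, so that replicate 2 of the amputated digits lay inside the intact range. The log2 difference was 1.33 ± 0.52 with an adjusted p of 0.154 by edgeR, and 0.49 without amputated day 14 replicate 1. At day 7 it had 4.58, 2.03 and 4.67 CPM against 2.42, 2.67 and 2.40, with amputated replicate 2 below all intact digits. The average was 0.96 ± 0.37 (adjusted p = 0.111), and 0.0331 by DESeq2. The Msx genes overlapped at both days: Msx1 had 18.8 to 31.1 against 18.6 to 25.1 CPM at day 7, and 21.0 to 34.9 against 21.4 to 24.7 CPM at day 14, where its log2 difference was 0.35 ± 0.21 (adjusted p = 0.331 by edgeR).

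At day 14 edgeR called 0 of 10 members, with 2.75% of all tested genes called. The unadjusted p was under 0.05 for 3 members (Tnc, Dlx6 and Mest) and 24.0% of genes, and DESeq2 and voom called 2 members each. Without overlap between libraries, 4 of 10 members were higher and 0 lower at day 14 (Lhx9, Dlx5, Dlx6 and Tnc), where 32.6% of all tested genes did not overlap and 15.9% were higher. At day 7 the count was 1 of 10, Tnc, with 19.2% of all genes not overlapping. The median log2 difference of the 10 members was 0.13 at day 7, 0.39 at day 14 and 0.32 in the average, and 9 of 10 were positive in the average, beside 51.9% of all genes. The medians over all tested genes were 0.00, 0.01 and 0.01. Whether the amputation difference itself changed between days was tested by an interaction, which edgeR called for 0 of 10 members and 0% of all tested genes. No member had an unadjusted interaction p under 0.05, DESeq2 and voom called 0 members, and the smallest p was that of Dlx6 (0.70 ± 0.34, adjusted p = 0.784 by edgeR).

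**Figure D2:**
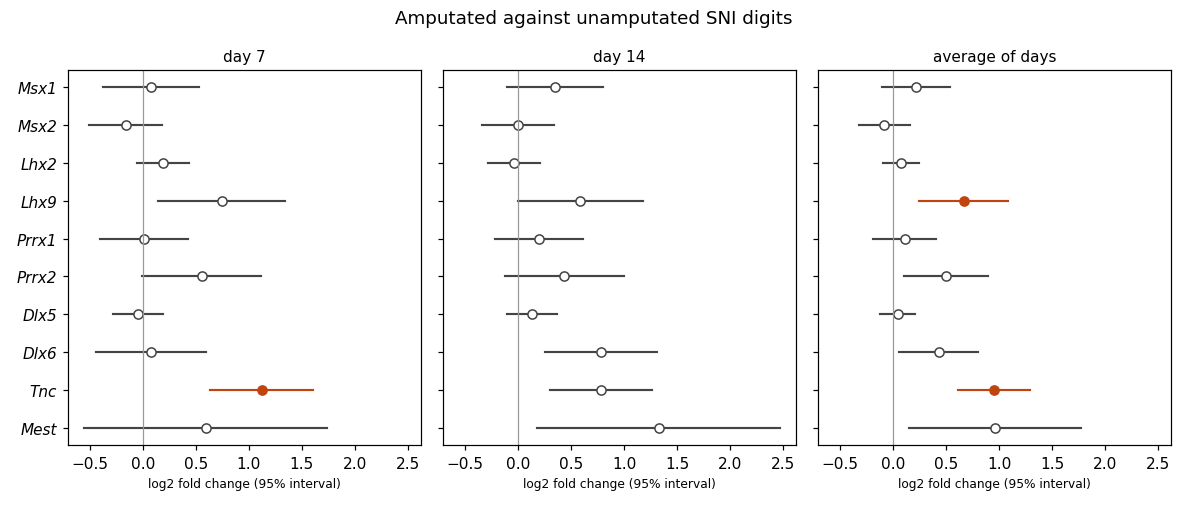
Log2 difference (x axis) of amputated against unamputated SNI digits for each member at day 7, day 14 and averaged, with 95% intervals from edgeR's fit; filled orange points passed an adjusted p of 0.05. Tnc is filled at day 7 (1.12) and in the average (0.95) and Lhx9 in the average (0.66).

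Markers of other cells differed between the same libraries. Of all tested genes 5.71% were called higher and 6.08% lower in the average of days. Of 8 osteoblast markers 3 rose in the average of days (Runx2 by 1.76, Ibsp by 1.77 and Dmp1 by 1.67 on the log2 scale, adjusted p of 0.00279, 0.0383 and 0.00644 by edgeR). Their summed level over the whole list was 146 to 293 CPM in amputated against 77.0 to 164 in intact digits at day 7, and 138 to 479 against 112 to 159 at day 14, with no marker of the list at 0 in any library. Of 5 osteoclast markers 4 rose, and their summed level was 335 to 1709 against 103 to 289 CPM at day 7 and 265 to 407 against 113 to 138 CPM at day 14. All 5 Schwann cell myelin markers fell, from 328 to 420 CPM summed in intact digits to 107 to 118 in amputated ones at day 14. The proliferation marker Mki67 was lower by 0.78 (adjusted p = 0.0287 by edgeR). Tnc and Lhx9 rose in the libraries where these lists moved, and the part of these cells in their change was not tested.

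Genes known to act with the members were read from lists chosen for their biology, but with earlier results of these data known. Of 29 other limb patterning factors tested, 2 fell in the average of days. In that comparison 6.08% of all tested genes were called lower and 5.71% higher, which is the background for each list here. Dlx3, a relative of the members found in epidermis and hair, fell by 0.28, and Gli1, a target of hedgehog signalling, fell by 0.68 on the log2 scale (adjusted p of 0.0175 and 0.0193 by edgeR). Of 8 LIM homeodomain cofactors 1 fell: Ldb1, the adaptor that binds LIM domains such as those of Lhx2 and Lhx9, was lower by 0.40 (adjusted p = 0.0243 by edgeR). Of 22 matrix and fibroblast activation genes 4 rose and 0 fell. They were Cthrc1, a collagen triple helix protein of injured tissue, by 2.16 ± 0.46, the cadherin gene Cdh2 by 1.01 ± 0.21, the retinoic acid binding protein gene Crabp1 by 0.65 ± 0.16, and Fap, a protease of activated fibroblasts, by 0.59 ± 0.17 (log2, edgeR). The median of that list was 0.27. Of 13 tenascins and tenascin-C receptors 1 fell, Tnxb, the tenascin of mature connective tissue, by 0.66 ± 0.12 with an adjusted p of 0.00843 by edgeR, so that Tnc and Tnxb moved in opposite directions. Of 11 imprinted growth genes 0 were called, and those with the smallest p were Cdkn1c (0.40 ± 0.14, adjusted p = 0.0732) and Meg3 (-0.77 ± 0.30, adjusted p = 0.111).

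The days of the amputation set were also compared, and Msx2 had the smallest p of the members. Amputated digits had 21.2, 19.1 and 20.5 CPM of Msx2 at day 7 and 36.7, 30.9 and 27.1 at day 14. The days did not overlap, and the log2 difference was 0.64 ± 0.16 with an adjusted p of 0.109 by edgeR and 0.0114 by DESeq2. Intact digits had 18.5, 22.4 and 27.3 CPM at day 7 and 32.8, 26.1 and 36.2 at day 14, a difference of 0.48 ± 0.16 (adjusted p = 0.617 by edgeR) with 1 library of each day overlapping. The 6 keratin markers of the inner hair follicle layers moved beside it, from 467 to 731 CPM summed at day 7 to 1101 to 1757 at day 14 in amputated digits and from 252 to 723 to 1066 to 1640 in intact ones. Their part in the Msx2 difference was not tested. No member was called between days: edgeR called 0 of 10 in amputated digits, where 0.607% of all genes were called, and 0 of 10 in intact digits, where 0.303% were. The unadjusted p was under 0.05 for 1 and 2 members, beside 13.3% and 4.97% of genes. DESeq2 called 1 and 0, and voom called 0 and 0. In intact digits Lhx2 had 17.6 to 20.4 CPM at day 7 and 23.4 to 24.0 CPM at day 14, without overlap (log2 difference 0.29 ± 0.11, adjusted p = 0.858 by edgeR).

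The time course addresses whether these genes differ between SNI and sham digits while the digit regrows. No member passed edgeR's test between SNI and sham digits at any day. It called 0 of 10 members at day 7, day 14, day 21, in the average of days and in the test of the SNI difference by day, and 0% of all tested genes in each. The unadjusted p was under 0.05 for 1 member at day 7, 1 at day 14 and 0 in the others, beside 13.6% of all genes at day 7, 5.93% at day 14, 2.20% at day 21, 14.0% in the average and 3.66% in the interaction. DESeq2 called 0 members in each. Voom with sample quality weights called 3 members at day 7 and 5 at day 14, in fits that called 7749 and 8737 of all 16084 genes, and 0 members at day 21, in the average and in the interaction. The 95% intervals of the average ran from -1.34 to 0.56 (log2) for Tnc and -0.29 to 0.36 (log2) for Prrx1.

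Prrx2 had the smallest unadjusted p of the members at day 14. It had 26.2, 20.4 and 26.8 CPM in SNI digits and 16.9, 15.4 and 17.0 in sham digits. Every SNI library lay above every sham library, and the log2 difference was 0.58 ± 0.21 (n = 3 against 3, adjusted p = 0.578 by edgeR, 0.0127 by voom). At day 7 SNI digits had 22.1, 11.7 and 15.4 CPM against 13.1, 16.4 and 14.0, and at day 21 they had 23.3, 21.5 and 23.2 against 19.9 and 24.6. Both of these days overlapped, and the average difference was 0.26 ± 0.13 (adjusted p = 0.372 by edgeR). Its paralogue Prrx1 had 96.2 to 109 CPM in SNI and 74.0 to 97.5 in sham digits at day 14, with overlap.

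Dlx5 at days 7 and 14, Lhx2 at day 7 and Dlx6 at day 14 had every SNI library below every sham library. Dlx5 had 18.6, 6.94 and 13.0 CPM at day 7 after SNI and 26.8, 20.4 and 20.6 after sham surgery, a log2 difference of -0.81 ± 0.46 (adjusted p = 0.301 by edgeR, 0.00845 by voom). At day 14 Dlx5 had 21.8, 15.1 and 9.34 CPM against 24.1, 24.1 and 22.8. Lhx2 had 23.9, 3.56 and 15.4 CPM at day 7 after SNI, below the 25.1 to 29.4 of sham digits, and overlapped at day 14 with 9.36 to 25.2 against 24.0 to 32.1. The lowest Lhx2 values of the whole time course, 3.56 and 4.33 CPM, were in the libraries with TMM factors under 0.8. So were the lowest Dlx5 values, 6.94 and 4.95 CPM. Without both of these libraries edgeR again called 0 members in every time course comparison.

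Dlx6 had 2.19, 1.88 and 0.720 CPM at day 14 after SNI and 2.52, 3.30 and 2.57 after sham surgery. These groups did not overlap, and the log2 difference was -0.81 ± 0.46 (adjusted p = 0.578 by edgeR, 0.0158 by voom). Msx2 had 21.4, 34.2 and 15.6 CPM against 53.6, 38.0 and 31.2 at day 14, with 1 SNI library above the lowest sham one (-0.78 ± 0.51, adjusted p = 0.578 by edgeR). The summed hard keratins of nail and hair stood at 833 to 4362 CPM after SNI and 3183 to 5986 CPM after sham surgery at that day, and their part in the Msx2 values was not tested. Msx1 had 25.6 to 32.4 CPM against 34.3 to 35.5 at that day and 26.6 to 36.4 against 37.0 to 37.4 at day 21, lower after SNI without overlap at both.

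Mest at day 7 had 14.9, 4.68 and 5.56 CPM after SNI and 3.75, 5.01 and 3.82 after sham surgery. SNI replicate 1 stood far above the other libraries, replicate 2 overlapped the sham range, and the log2 difference was 1.00 ± 0.45 (adjusted p = 0.301 by edgeR). Without SNI day 7 replicate 1 it was 0.29. Tnc spread widely within SNI groups, with 313, 55.1 and 74.2 CPM at day 14 and 167, 54.7 and 37.0 at day 21, against 194, 140 and 134, and 37.2 and 175, after sham surgery. Lhx9 had 0.639 to 3.52 CPM over SNI and 1.01 to 3.36 over sham libraries.

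Counted without overlap, 2 members were lower and 0 higher at day 7 (Lhx2 and Dlx5), where 37.4% of all tested genes did not overlap and 23.8% were lower. At day 14, 3 were lower (Msx1, Dlx5 and Dlx6) and 1 higher (Prrx2), against 23.3% of all genes. At day 21, with 3 libraries against 2, 1 was lower (Msx1), against 7.66% of all genes, 4.36% higher and 3.30% lower. The median log2 difference of the members was 0.06 at day 7, -0.19 at day 14, 0.03 at day 21 and -0.11 in the average, and that of all genes was 0.02, 0.03, -0.10 and 0.01. The difference was positive for 6, 3, 7 and 4 of the 10 members in that order, and for 51.0%, 52.0%, 39.7% and 51.5% of all genes. Of 29 other limb patterning factors 0 were called in the average, 27 had a negative sign, and their median was -0.32. Among them were Sox11, a factor of embryonic mesenchyme (-1.03 ± 0.32, adjusted p = 0.337 by edgeR), and Gli1 (-1.21 ± 0.45). Tnxb had -1.04 ± 0.31 in the tenascin list and Cdkn1c 0.47 ± 0.14 in the imprinted list, in which 0 genes were called. In the average 0 of 8 LIM cofactors and 0 of 22 matrix genes were called as well, with medians of 0.07 and -0.11.

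**Figure D3:**
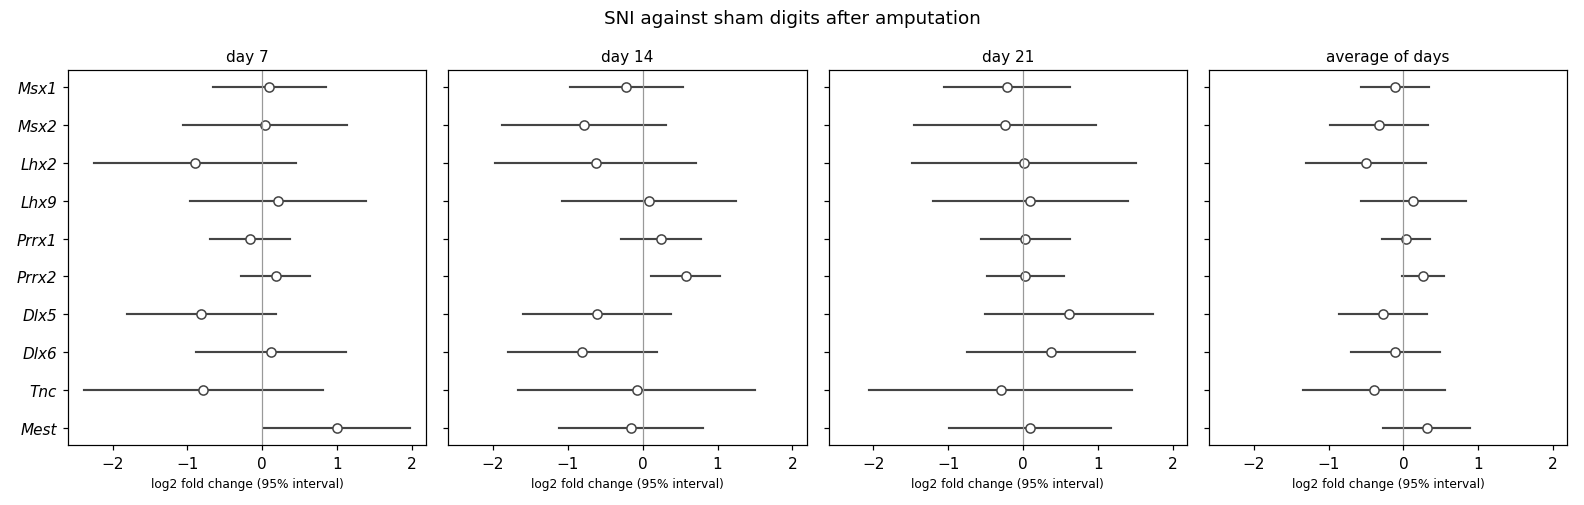
Log2 difference (x axis) of SNI against sham digits for each member at days 7, 14 and 21 and averaged, with 95% intervals from edgeR's fit; open points passed no test. Prrx2 at day 14 (0.58) and Mest at day 7 (1.00) are the members whose intervals leave out 0.

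Over time within sham digits the members sat higher at day 14 than at day 7, all 10 with a positive difference, which 48.6% of all genes had, and a median of 0.36 against -0.01 over all genes. Of these, 5 did not overlap (Msx1, Msx2, Lhx9, Dlx6 and Mest), where 17.5% of all tested genes did not overlap 8.11% being higher and 9.39% lower. Mest went from 3.75, 5.01 and 3.82 CPM to 8.92, 7.55 and 15.8, a log2 difference of 1.36 ± 0.46. Dlx6 went from 1.34, 1.49 and 1.34 CPM to 2.52, 3.30 and 2.57 (1.01 ± 0.46), and Msx2 from 18.0, 19.5 and 29.6 to 53.6, 38.0 and 31.2 (0.87 ± 0.51). All 3 had an adjusted p of 1.00 by edgeR, and voom called these 3 members. Msx1 was the tightest, with 23.6, 26.0 and 23.7 CPM at day 7 and 34.3, 34.7 and 35.5 at day 14. Summed markers of several tissues also separated these libraries: osteoblast markers stood at 213 to 394 CPM at day 7 and 553 to 619 at day 14, tendon markers at 213 to 242 and 408 to 510, and chondrocyte markers at 64.6 to 100 and 130 to 162. Osteoclast markers stood at 803 to 1141 and 201 to 311 CPM, and macrophage markers at 262 to 365 and 162 to 185. Hard keratins overlapped, with 1379 to 3408 and 3183 to 5986 CPM. The part of these tissues in the members' values was not tested. EdgeR called 0 of 10 members and 0% of genes, 2 members and 1.96% of genes had an unadjusted p under 0.05, and DESeq2 called 0 members.

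By day 21 sham digits had 2 libraries, 1 of them with the low TMM factor, and edgeR called 0 of 10 members and 0% of genes against day 7, with 1 member and 20.3% of genes at an unadjusted p under 0.05 and 0 members called by DESeq2 and by voom. Of the members 5 were higher and 2 lower without overlap, beside 9.89% and 10.7% of genes, and 7 of 10 differences were positive, beside 49.7% of genes. Prrx2 had 19.9 and 24.6 CPM, above the 13.1 to 16.4 of day 7 (log2 difference 0.62 ± 0.24, adjusted p = 0.222 by edgeR), and Msx1 had 37.4 and 37.0 (0.61 ± 0.39). Dlx5 had 4.95 and 16.4 CPM, both below the 20.4 to 26.8 of day 7 (-1.08 ± 0.53, adjusted p = 0.266 by edgeR). This difference was -0.45 without sham day 21 replicate 1, the library with the low factor, and -2.19 without replicate 2. Without sham day 21 replicate 2, which leaves only the library with the low factor, edgeR called 2 members and 8331 genes in this comparison.

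In SNI digits the Prrx pair had the smallest p-values over time. Prrx1 went from 92.3, 40.6 and 59.8 CPM at day 7 to 109, 96.2 and 97.4 at day 14, without overlap (log2 difference 0.65 ± 0.25, adjusted p = 0.876 by edgeR), and was the 1 such member where 4.92% of genes did not overlap. Prrx2 differed by 0.58 ± 0.21 at day 14 and 0.47 ± 0.21 at day 21, with overlap at both. The lowest day 7 value of both genes was that of SNI replicate 2, the library with the low TMM factor and the high neutrophil sum. Without it the Prrx1 difference at day 14 was 0.36, and those of Prrx2 were 0.34 at day 14 and 0.24 at day 21. EdgeR called 0 of 10 members and 0% of all genes at day 14 and at day 21 against day 7. Prrx1 and Prrx2 were the 2 members that had an unadjusted p under 0.05 at each day, beside 3.03% and 3.87% of genes, DESeq2 called 0 at both, and voom called 0 and 3. Between day 7 and day 14 all 10 members had a positive difference here too, as did 53.7% of all genes, with a median of 0.28 against 0.04 over all genes.

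The members form 4 pairs of related genes, and scaling a library leaves the ratio of their counts unchanged. Both libraries with a low TMM factor still stood at the ends of some ranges. Sham day 21 replicate 1 had the highest Lhx9 to Lhx2 (0.234) and Dlx6 to Dlx5 (0.303) ratios of the time course. SNI day 7 replicate 2 was the highest of its group for Lhx9 to Lhx2 (0.179) and Prrx2 to Prrx1 (0.288). It was the lowest of its group for Dlx6 to Dlx5 (0.0877) and Msx2 to Msx1 (0.501). Prrx2 to Prrx1 was 0.108 to 0.114 in intact digits and 0.134 to 0.175 in amputated digits at day 7, and 0.148 to 0.159 against 0.168 to 0.209 at day 14. Every amputated library lay above every intact one of its day. Intact digits also differed between days without overlap, and those of day 14 lay inside the range of amputated digits at day 7. In the time course the ratio was 0.239 to 0.288 after SNI against 0.173 to 0.217 after sham surgery at day 7 and 0.212 to 0.275 against 0.174 to 0.208 at day 14, and it overlapped at day 21.

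The ratio of Lhx9 to Lhx2 was 0.0833 to 0.179 after SNI against 0.0553 to 0.0664 at day 7, and 0.118 to 0.154 against 0.0658 to 0.106 at day 14, without overlap. At day 21 it overlapped, with 0.158 to 0.204 against 0.155 to 0.234. With amputation it was 0.0800 to 0.109 against 0.0539 to 0.0775 at day 14, without overlap, and overlapped at day 7. Dlx6 to Dlx5 was 0.050 to 0.0728 in sham digits at day 7, below every other group of the time course. With amputation it was 0.139 to 0.200 against 0.0839 to 0.137 at day 14, without overlap, and overlapped at day 7. Msx2 to Msx1 overlapped between SNI and sham digits at each day and between amputated and intact digits at each day. These ratios were looked at after their values were seen, and no test was run on them. How often the ratios of other gene pairs do not overlap was not worked out.

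**Figure D4:**
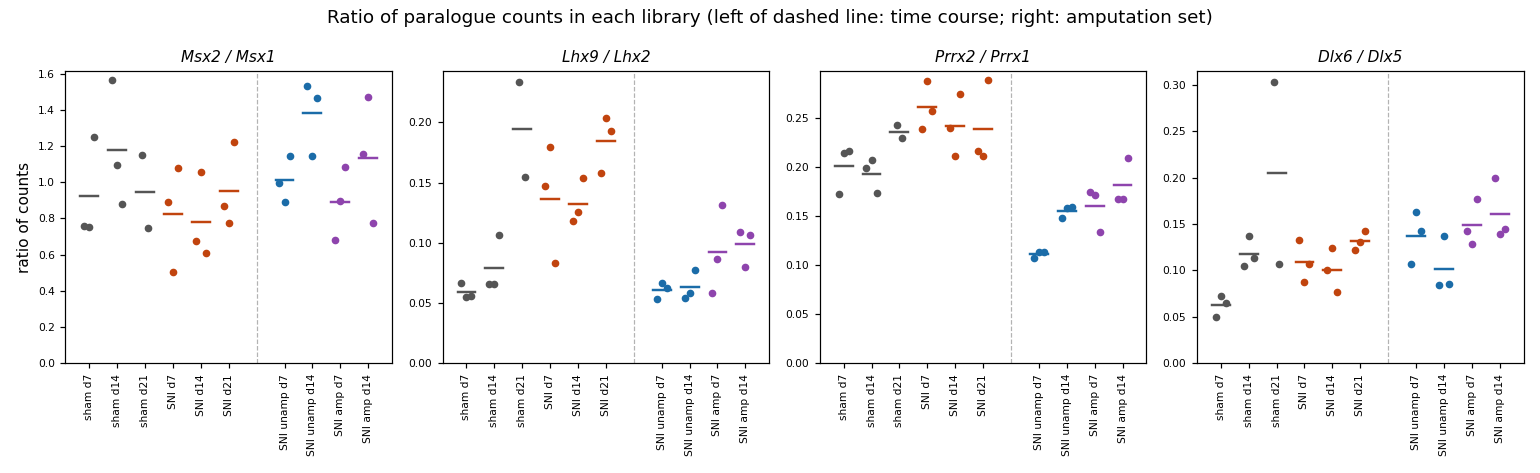
Ratio of counts (linear axis from 0) of 4 pairs of related members in each library, by group; points are libraries, bars are group means, and the dashed line separates the tables. Within the amputation set at day 7, the Prrx2 to Prrx1 ratio in amputated digits (0.134 to 0.175) lies above that of intact digits (0.108 to 0.114).

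Members did not follow one pattern. Likeness was measured by Pearson's r of log2 CPM over the libraries of a table, among 13118 genes of the time course and 13349 of the amputation set with a mean of at least 1 CPM. The libraries share groups, scaling and the libraries that stand apart, so r is a description only. In the amputation set (n = 12 libraries) Prrx2 was most like Msx1 among members (r = 0.878) and next most like Tnc (0.856), while Msx2 was most like Lhx2 at only 0.566. In the time course (n = 17 libraries) Lhx2 and Dlx5 were the closest pair (0.943), Msx1 and Msx2 had 0.841, and Prrx2 had 0.00 with Lhx2.

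The genes most like Tnc in the amputation set were Antxr1 (r = 0.962), the osteoblast factor Runx2 (0.962) and Nox4 (0.952). Runx2 had 22.8, 20.3 and 13.3 CPM with amputation and 5.25, 4.64 and 6.42 without at day 7, in the same order as Tnc among the amputated digits. Amputated day 14 replicate 2, the lowest amputated library for Tnc, was also the lowest for Runx2 at 8.40 CPM. In the time course Tnc was most like Ltbp1 (0.981), Svep1 (0.976) and Pxdn (0.976), genes of matrix proteins.

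Msx2 had a keratin gene as its most alike gene in each table. In the amputation set the 3 genes were Krt73 (r = 0.972) and Krt28 (0.959), keratins of the inner root sheath of hair, and Rab3ip (0.958). In the time course they were the hard keratin gene Krt34 (0.972), the connexin gene Gja3 (0.957) and the receptor gene Gprc5d (0.957). SNI day 7 replicate 2, the lowest for Msx2 at 6.02 CPM, was also the lowest for Krt34 at 15.4 CPM, and sham day 14 replicate 1 was the highest for both at 53.6 and 599 CPM. The genes most like the mesenchymal members in the time course were, for Msx1, Mamdc2 (0.938), Pdgfrl (0.935) and Serpinf1 (0.887), for Prrx1, Htra1 (0.920), Pth1r (0.919) and Serpinf1 (0.917), for Prrx2, Lum (0.939), Clec11a (0.926) and Olfml3 (0.905), and for Lhx9, Col8a2 (0.935), Mfap2 (0.934) and Dkk3 (0.926).

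Dlx5 was most like Sp9 (r = 0.990), a factor of the limb ridge, with Calcoco1 (0.985) and Plekhh3 (0.984), and Dlx6 was most like Tbx18 (0.937), Hoxc13 (0.899), a factor of hair and nail, and Lrrc15 (0.891). Lhx2 was most like Ubqln4, Prickle2 and Mtmr10 (0.982 each). Mest had lower values, with C1qtnf5 at 0.809, Prr5l at 0.779 and Shisa4 at 0.769. In the amputation set Lhx9 was most like Usp11 (0.917), Ndrg2 (0.900) and Lurap1l (0.896), Prrx2 was most like Adamts4 (0.948), Itpripl2 (0.937) and Wif1 (0.933), and Mest was most like Mmp16 (0.920), Itm2a (0.881) and Arl6 (0.874).

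**Figure D5:**
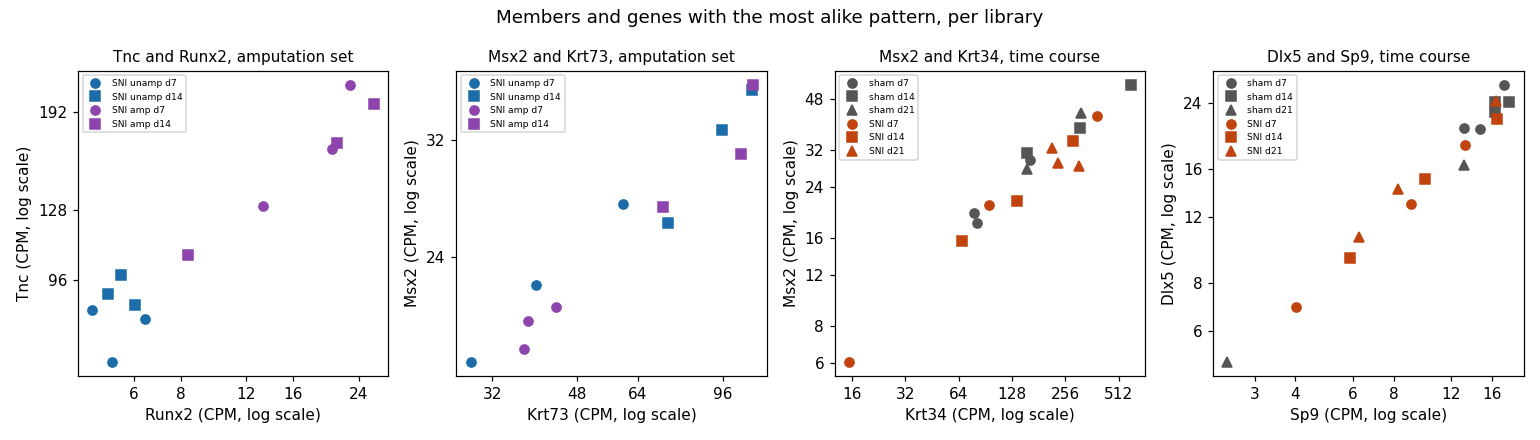
CPM per library (both axes logarithmic) of Tnc with Runx2 and Msx2 with Krt73 in the amputation set, and of Msx2 with Krt34 and Dlx5 with Sp9 in the time course; colour gives the condition and shape the day. Amputated and intact digits separate for Tnc, whereas Msx2 rises along Krt73 and Krt34.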

How the data were processed

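Poly(A) RNA of mouse digits was sequenced with a strand-specific kit, per the labels' protocols. The values are unnormalised read counts of each gene as deposited by the authors, and the submitters' processing notes name build GRCm39. Aligner, counter and strand setting: not given in the sources used here. Libraries were grouped by title and treatment, and the time course (17 libraries) and the amputation set (12 libraries) were fitted apart, each over all of its groups. Genes passing edgeR's filterByExpr (minimum count 10, minimum total 15) were tested with edgeR 4.0.16 in R 4.3.3 (TMM factors, robust quasi-likelihood test, Benjamini-Hochberg adjustment over all tested genes, threshold 0.05). Intervals are 95%. Symbols were found for 99.4% of the Ensembl identifiers through GENCODE M21.

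Likeness used log2 CPM with a prior count of 2, and CPM per kilobase used exon lengths of GENCODE M21. Alternatives were DESeq2 1.42.0, limma 3.58.1 voom with sample quality weights, RLE size factors, library totals alone, 1 surrogate variable (sva 3.50.0), no filter, a replicate block, fits of the compared groups alone, and leaving out each library or both libraries with a TMM factor under 0.8. The test was tried on simulated data in which genes varied independently, unlike the real libraries. Among genes set to change 4-fold, 61.2% were recovered in the day 7 comparison of the time course and 94.0% in that of the amputation set.

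The members and all gene lists were chosen with earlier results of these data known. The members are named throughout, and fold changes of members are printed where they are at least 1.5 SE from 0, a rule chosen after the values were seen. Other genes are named where they were called or had the smallest p of their list, or were among the 3 genes with the highest correlation to a member. For the limb patterning list in the amputation set, the count given is of genes that fell, and genes that rose are not reported here.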

Additional observations from a re-analysis of the deposited data

How the results depend on the processing

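Of 808 alternative values of 37 member fold changes, 762 kept their direction and side of the threshold, 0 reversed, 24 lost a call and 22 gained one. Members called by edgeR were 0 at day 7 of amputation without the filter, with the replicate block and in the compared groups alone, and 1 in the average without the filter and with the block. With libraries left out in turn, members called ranged from 0 to 1 at day 7, from 0 to 1 at day 14 and from 1 to 2 in the average. Tnc lost its day 7 call with the block (adjusted p = 0.0759) and Lhx9 its average call (0.0619). The Tnc call at day 14 was gained with DESeq2 (0.00666), voom (0.00644), without amputated day 7 replicate 1 (0.0474) and without amputated day 14 replicate 2 (0.0294). DESeq2 called 2 members at day 14, 4 in the average and 1 between days of amputated digits. Voom called 2 at day 14 and 4 in the average, and in the time course 3 for SNI at day 7, 5 for SNI at day 14, 3 for sham day 14 against day 7 and 3 for SNI day 21 against day 7. Sham day 21 against day 7 ranged from 0 to 2 members with libraries left out, and the 2 came only without sham day 21 replicate 2. Over all settings but left-out libraries, all-gene calls ranged from 57 to 727 at day 7 of amputation (236 as reported), 56 to 2212 at day 14 (481), 1114 to 3188 in the average (2060), 70 to 473 between days of amputated digits (106) and 6 to 149 between days of intact ones (53). With libraries left out they ranged from 84 to 315, 31 to 995, 736 to 2428, 3 to 138 and 0 to 70 in that order. In the time course, where edgeR called 0 genes in each comparison, they reached 148 at day 21, 3384 for the SNI difference by day and 8331 for sham day 21 against day 7 with libraries left out. The causes of these changes were not tested.

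Whether replicate numbers paired the libraries could not be decided, because deviations from the means of small groups are tied to each other within a group. Same-number deviations correlated from -0.787 to 0.773 in the time course and from -0.203 to 0.143 in the amputation set. The medians of same-number and other pairs were 0.049 and -0.052 in the time course, and -0.013 and 0.0049 in the amputation set. In the same order of tables, 8 of 17 and 3 of 12 libraries correlated best with their own number. A shared animal, litter or batch was not tested. Lhx9 and Dlx6, with as few as 21 and 20 reads in a library, are the members that depth limits.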
